A study of Mus musculus with 2 samples.

Results

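Clustered regions are the regions of the deposited list that lie on chromosomes 1-19 and have another listed region within 1000 bp on either side, with the gap counted from the end of a region to the start of the next. They were chosen by position alone, so neither their tags nor their folds entered the choice. Of the 34675 regions on chromosomes 1-19, 2979 (8.59%) met the rule, and they formed 1439 runs, called clusters here. The other 31696 autosomal regions, which had no neighbour within 1000 bp, are called isolated. The whole list holds 35861 regions, X and Y included.

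The study compared primary chondrocytes from the knee cartilage of Control and Uhrf1 cKO (conditional knockout) mice, both of the C57BL/6 background and taken at postnatal day 3. Cells of both genotypes had been treated with rhBMP-2, a recombinant bone morphogenetic protein, at 100 ng/ml for 24 hours, so an untreated state was not compared. DNA that bound the MBD2 protein, which recognises methylated CpG, was sequenced (MBD-seq), with 1 library per genotype. The sources used here do not name the driver of the deletion or say how many animals were used or pooled, and DNA capture gives no expression with which to check the cell type. After removal of duplicate positions the Control library kept 9782276 of 21831989 tags and the cKO library 15039206 of 19760028, so the Control library lost the larger share, and the part of this in the results was not tested. Each listed region has more Control than cKO signal by the authors' caller, at p of at most 1e-10, and places with more cKO signal are not listed. Tag counts are Control tags in the region. The fold sets the height of the Control summit against a local background that the caller took from the cKO library, and the FDR is a percentage from the caller's swap of the libraries. Folds, scores and FDR values are the authors' and serve only to describe regions within the list. With 1 library per genotype no value has a replicate check, and intervals (95%) cover counting error only, with regions treated as independent.

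Uhrf1 binds hemimethylated CpG sites behind the replication fork and recruits the maintenance methyltransferase Dnmt1, which copies the methyl group to the new strand. In mammalian genomes most CpG sites outside CpG islands are methylated, and neighbouring CpG sites tend to share their state. MBD2 binds methylated CpG, and capture is stronger where several methylated CpG sites lie close together. A run of adjacent regions is a stretch (median 1436 bp, at most 5163 bp) in which the caller listed 2 or more regions with more Control than cKO signal. Not all of these regions had a low FDR, as given below.

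The sequence of the regions themselves was not used here, but 31 of 31365 distinct 250-base windows upstream of RefSeq gene starts (GRCm38.p6, the assembly that mm10 names) shared bases with clustered regions. The 8 windows below were taken from separate clusters, ordered by the number of regions and then by Control tags, and are printed 5′ to 3′ on the strand of the gene with each CpG, the methylation site, in capitals. They are shown because they are the gene starts at which clusters and CpG sites can be set side by side: each holds between 5 and 10 CpG sites, although the clustered regions cover only part of most windows.
Atp6v1e2: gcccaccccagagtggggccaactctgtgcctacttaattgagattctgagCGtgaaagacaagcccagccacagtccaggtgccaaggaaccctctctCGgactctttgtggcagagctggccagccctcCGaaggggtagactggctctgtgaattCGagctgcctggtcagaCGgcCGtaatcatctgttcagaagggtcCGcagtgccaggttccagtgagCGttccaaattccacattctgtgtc
Gm46645: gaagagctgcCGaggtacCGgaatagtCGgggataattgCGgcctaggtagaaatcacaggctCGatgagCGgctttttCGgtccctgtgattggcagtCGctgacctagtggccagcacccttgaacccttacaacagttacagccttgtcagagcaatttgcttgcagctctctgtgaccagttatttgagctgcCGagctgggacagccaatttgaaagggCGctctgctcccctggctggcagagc
Gm41590: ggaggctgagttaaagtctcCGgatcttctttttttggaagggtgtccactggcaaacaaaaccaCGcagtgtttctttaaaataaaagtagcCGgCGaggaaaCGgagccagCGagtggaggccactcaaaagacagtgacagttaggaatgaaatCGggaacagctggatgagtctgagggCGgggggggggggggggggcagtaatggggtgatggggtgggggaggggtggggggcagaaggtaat
Gm40237: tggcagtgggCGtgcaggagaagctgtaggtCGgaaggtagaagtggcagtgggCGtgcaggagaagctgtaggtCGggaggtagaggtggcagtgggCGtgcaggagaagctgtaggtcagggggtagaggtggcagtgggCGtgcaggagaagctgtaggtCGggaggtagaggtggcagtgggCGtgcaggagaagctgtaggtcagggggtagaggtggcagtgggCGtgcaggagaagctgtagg
C030013C21Rik: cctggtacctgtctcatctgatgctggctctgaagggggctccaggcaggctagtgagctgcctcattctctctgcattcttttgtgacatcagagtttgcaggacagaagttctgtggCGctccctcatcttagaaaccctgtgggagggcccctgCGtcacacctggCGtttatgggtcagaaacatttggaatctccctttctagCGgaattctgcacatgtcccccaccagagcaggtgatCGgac
Peg12: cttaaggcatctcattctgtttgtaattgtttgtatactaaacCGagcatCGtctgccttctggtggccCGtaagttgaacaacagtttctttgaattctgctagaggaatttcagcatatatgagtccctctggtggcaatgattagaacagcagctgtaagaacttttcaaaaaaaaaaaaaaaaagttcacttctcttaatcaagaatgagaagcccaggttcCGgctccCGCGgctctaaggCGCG
Gm39659: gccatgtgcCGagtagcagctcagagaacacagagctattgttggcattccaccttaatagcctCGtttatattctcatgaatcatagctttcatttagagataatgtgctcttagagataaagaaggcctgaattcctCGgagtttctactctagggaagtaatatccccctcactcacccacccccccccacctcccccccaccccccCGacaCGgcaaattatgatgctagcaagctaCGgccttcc
Cytip: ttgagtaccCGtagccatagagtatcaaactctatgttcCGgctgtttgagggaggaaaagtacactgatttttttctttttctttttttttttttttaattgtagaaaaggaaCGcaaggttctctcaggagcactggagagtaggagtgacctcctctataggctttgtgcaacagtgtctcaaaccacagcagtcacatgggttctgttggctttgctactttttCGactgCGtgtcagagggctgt

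The Atp6v1e2 window (chr17:86947888-86948137, minus strand) lay wholly within the last of 3 clustered regions. Atp6v1e2 encodes a subunit of the vacuolar proton pump. The 3 regions of this cluster held 34, 163 and 174 Control tags at folds of 10.27, 11.33 and 12.36, with gaps of 591 and 597 bp, and the smallest of them had an FDR of 100%. In the Peg12 window (chr7:62464511-62464760, minus strand), 103 of 250 bases lay in a clustered region. The CpG sites at the end of this window, beside the start of the gene, are packed more closely than the others. Peg12 is an imprinted gene, expressed from the paternal chromosome. Its cluster held 233 tags at 11.33-fold and 197 tags at 5.29-fold, separated by 240 bp. The Cytip window (chr2:58160123-58160372, minus strand) was crossed by the 31 bp gap between 2 regions of 202 and 204 tags, at 12.91-fold and 19.99-fold, and both had an FDR of 0%. Cytip encodes a protein of blood cells that binds cytohesins.

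The other windows belong to noncoding gene models. The Gm40237 window (chr4:118547156-118547405, plus strand), which precedes one of its annotated starts, belongs to a cluster 2.22 kb from the nearest protein-coding gene, Tmem125, and 250 of its 250 bases were in clustered regions. Its sequence repeats itself: 96.1% of its letters equalled the letter 44 bases further on, and 97.5% the letter 88 bases further on, and each copy carries CpG. No other printed window passed 36.1% at any step from 10 to 100 bases, and 15 of the 31365 windows (0.048%) reached 80%. The adjoining regions held 48 tags at 31.96-fold and 413 tags at 112.79-fold, 10 bp apart, and 112.79 was the largest fold among all clustered regions. The window lay in the region of 31.96-fold. The region of 112.79-fold starts beyond the window, at 118547552, and its sequence was not examined. How reads that match several copies were placed is not known here, and its part in these folds was not tested. The Gm46645 window (chr19:15340348-15340597, minus strand) belonged to regions of 203 and 326 tags at 16.99-fold and 7.53-fold. The Gm41590 window (chr17:47545669-47545918, minus strand) lies inside Ccnd3, which encodes a cyclin of the cell cycle, and its regions held 296 and 192 tags at 6.06-fold and 13.54-fold. The C030013C21Rik window (chr11:80509107-80509356, minus strand) had 33 of its 250 bases in a clustered region and most of the others in the 799 bp gap of a cluster within Myo1d, a myosin gene, with 260 and 179 tags at 12.94-fold and 9.5-fold. The Gm39659 window (chr1:71327040-71327289, plus strand) had only its last 37 bases in a cluster, which lies within Abca12, a lipid transporter gene, with 78 and 341 tags at 18.87-fold and 9.44-fold. In the Gm46645, Gm41590 and Gm39659 clusters the region with more tags had the smaller fold, so tags and fold did not always rank neighbours alike.

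Over all 31 windows with a clustered region, the median was 8 CpG sites (quartiles 4 and 9.5, range 2 to 17). The 299 windows that met isolated regions alone had a median of 6 (4 to 8), and the 31035 windows with no region also had a median of 6 but a much wider spread (2 to 16). At least 20 CpG sites were found in none of the 31 windows with a clustered region, in 9 of the 299 (3.01%) and in 5771 of the 31035 (18.6%). The intermediate range of 5 to 12 CpG sites held 64.5% of the first class, 59.2% of the second and 23.5% of the third. The classes differ in gene type: 9 of the 31 windows, 124 of the 299 and 19921 of the 31035 precede protein-coding genes. In windows of other gene models the medians were 6, 6 and 3, and 59.1%, 66.9% and 23.6% held 5 to 12 sites. In those of protein-coding genes the medians were 10, 6 and 10, and the shares 77.8%, 48.4% and 23.5%. The motif counted here is CG, which reads the same on both strands and was present in 92.3% of all windows. The 31 windows belong to 29 genes, and the difference between them and the windows with isolated regions was not tested.

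Clusters were mostly pairs. Of the 1439 clusters, 1348 (93.7%) held 2 regions, 82 held 3, 8 held 4 and 1 held 5. Their median span was 1436 bp (quartiles 1184 and 1758, range 278 to 5163), and together they spanned 2.14 Mb, of which regions covered 67.1% and gaps 32.9%. A median cluster held 250 Control tags (158.5 to 366.5). Between neighbours the median gap was 445.5 bp (quartiles 210.75 and 697.25, range 1 to 999), and the median distance between summits was 917 bp. Only 44 of 1540 neighbouring pairs (2.86%) had summits within 300 bp of each other, the band width of the caller. Gaps no longer than 58 bp, the distance d modelled by the caller, were found in 123 pairs (7.99%).

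Short gaps were more frequent than gaps just beyond the limit. There were 863 pairs (counting interval 806 to 923) with a gap of up to 500 bp and 677 (627 to 730) between 501 and 1000 bp. The next steps of 500 bp held 558 (513 to 606), 599 (552 to 649), 546 (501 to 594) and 533 (489 to 580) pairs. The count thus fell up to about 1000 bp and was level from there to 3000 bp, where steps of 100 bp held between 87 and 132 pairs. Regions at gaps of 901 to 1000 bp (246 regions) had a median fold of 12.42 and 114 tags, and those at 1001 to 1100 bp (223 regions) had 11.61 and 111 tags. Over all successive autosomal regions the median gap was 26.8 kb.

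**Figure D1:**
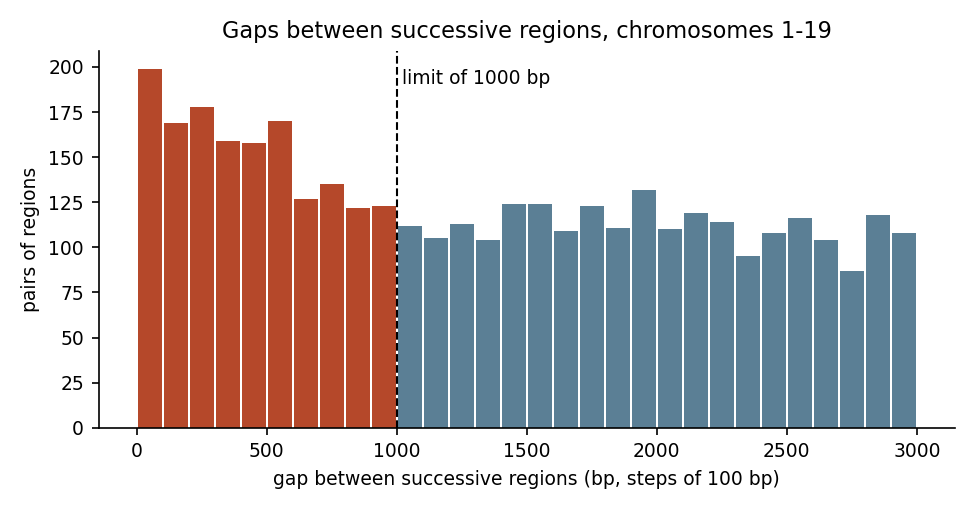
Number of pairs of successive regions on chromosomes 1-19 by the gap between them, in steps of 100 bp up to 3000 bp. Red bars lie within the 1000 bp limit that defines clusters and fall from 199 pairs at 0 to 100 bp to 123 at 901 to 1000 bp, and the blue bars beyond it run level between 87 and 132.

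Singly, clustered regions looked like isolated ones. The median fold was 12.43 (quartiles 8.76 and 18.5) in clustered and 12.06 (8.5 and 18.02) in isolated regions, and the median Control tag count was 107 (57.5 to 183) against 104 (60 to 176). Their median lengths were 488 and 476 bp, and their tag densities 217.5 and 217.9 tags per kb. By the values in the authors' deposited table, a fold of 10 was reached by 1958 clustered regions (65.7%), against 64.2 percent of all autosomal regions and 64.1% of isolated ones. The difference between clustered and isolated regions was 1.62 percentage points, with an interval of -0.18 to 3.39 that includes 0. An FDR no higher than 5% was given to 1752 clustered regions (58.8%), against 57.3 percent of all autosomal regions, and the difference from isolated regions was 1.69 points (-0.17 to 3.53). A fold of at least 50 was found in 45 clustered (1.51%) and 504 isolated regions (1.59%). At the other end, 505 clustered regions (17.0%) had an FDR of 100%, against 16.1% of all autosomal and 16.0% of isolated regions. The difference from isolated regions was 0.94 points (-0.43 to 2.38). Such an FDR means that the caller found at least as many regions of that strength with the libraries swapped. Regions in clusters of 4 or 5 had a median fold of 12.7, those in clusters of 3 had 12.37 and those in pairs had 12.44, so fold did not grow with the number of regions.

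**Figure D2:**
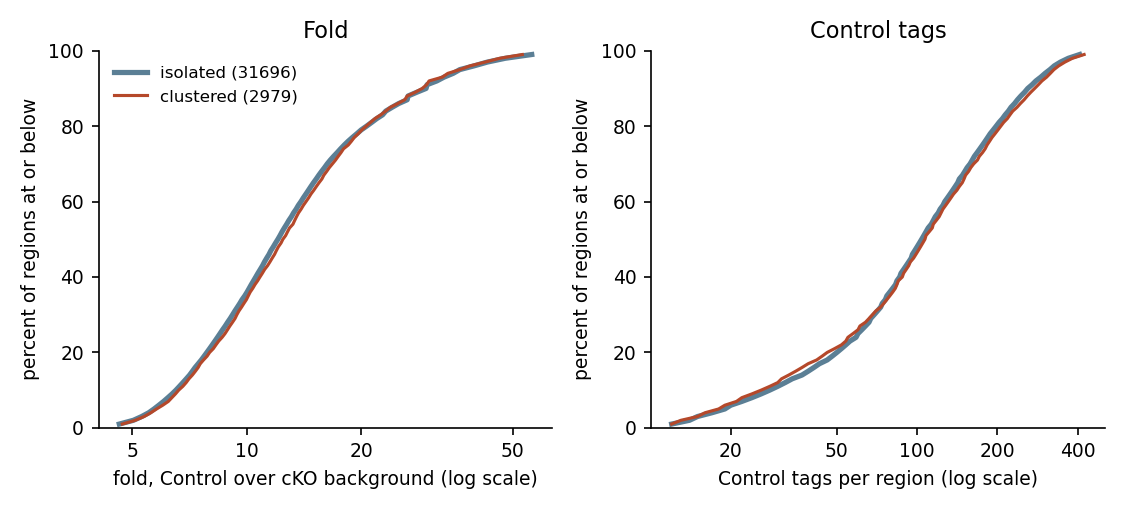
Percentiles 1 to 99 of the authors' fold (left) and of Control tags per region (right), both on log axes, for 2979 clustered regions (red) and 31696 isolated regions (blue). The curves nearly coincide, with medians of 12.43 and 12.06 for the fold and 107 and 104 for the tags.

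Neighbours within a cluster differed from each other almost as much as regions far apart. The median pair within a cluster differed 1.62 times in fold, against 1.67 times for successive regions with larger gaps, and 1.92 times in tags, against 2.13 times. More than 2 times lay between the folds of 490 of the 1540 neighbouring pairs (31.8%) and of 36.5% of the pairs farther apart. The ratio of the largest to the smallest fold in a cluster had a median of 1.65 and a maximum of 10.6. Likeness was greatest at the shortest gaps. Among the 452 pairs with a gap of up to 250 bp, Pearson r was 0.47 for log2 tags and 0.28 for log2 folds, with Spearman rho of 0.38 and 0.25. Among the 411 pairs at 251 to 500 bp r was 0.13 for tags and 0.11 for folds, among the 677 at 501 to 1000 bp it was 0.14 for both, and among the 1157 pairs just outside clusters, at 1001 to 2000 bp, it was 0.04 and 0.18. Likeness in fold thus did not end at the cluster limit, and beyond 5 kb it was below 0.04 for both. These correlations are descriptions: pairs share both libraries, and successive pairs within the caller's 10000 bp regional background also share part of the denominator of the fold.

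**Figure D3:**
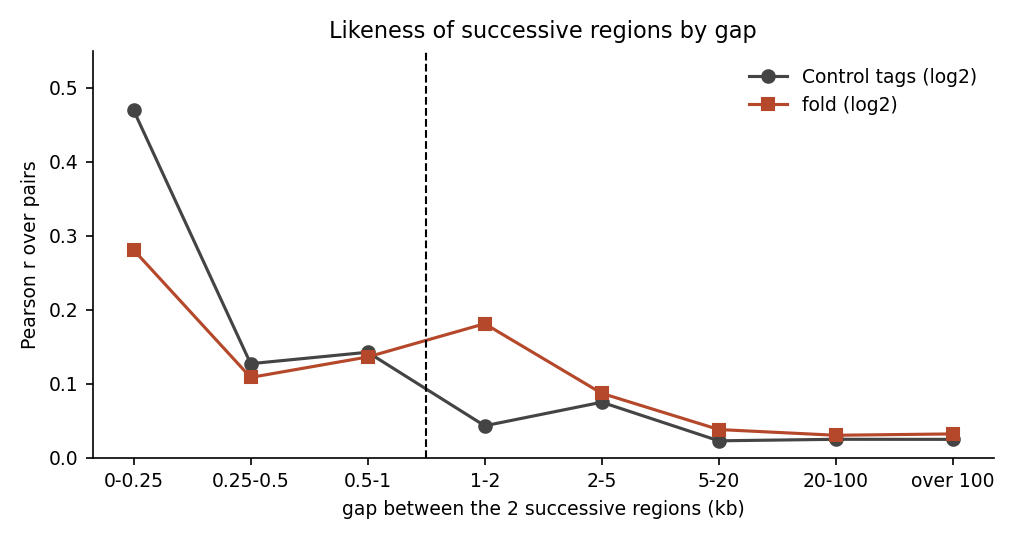
Pearson r between successive regions, each pair counted in both orders, for log2 Control tags (black circles) and log2 fold (red squares) in 8 classes of gap on chromosomes 1-19. The dashed line marks the 1 kb limit of a cluster, and r is 0.47 for tags and 0.28 for folds at gaps of up to 0.25 kb and under 0.04 beyond 5 kb.

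Confidence was often split within a cluster, about as often as between successive regions farther apart. In 488 clusters (33.9%) every region reached an FDR of 5% or less, some but not all in 709 (49.3%) and none in 242 (16.8%). Counted by neighbouring pairs, both regions passed in 35.3%, against 33.0% of pairs farther apart. A fold of at least 10 in every region was found in 629 clusters (43.7%), and 180 (12.5%) had no such region. By pairs, both regions reached that fold in 44.8%, against 41.6% of pairs farther apart, and neither did in 13.2%, against 13.3%. In 51.7% of neighbouring pairs (49.2 to 54.2, 1530 pairs without ties) the region with more tags also had the larger fold, against 46.0% of pairs farther apart (45.4 to 46.5), a difference of 5.74 points (3.18 to 8.29). In pairs, 1400 of 2696 summits (51.9%, 50.04 to 53.8) lay on the side of the region that faces its neighbour, so summits leaned little towards each other.

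Clusters of 4 or 5 regions show this variety at single loci. The largest by number lies on chromosome 5 at 116005014 to 116009362 and reaches past an end of Cit, which encodes citron kinase, an enzyme of cytokinesis. Its 5 regions held 109, 86, 109, 287 and 522 Control tags at folds of 5.99, 13.33, 6.41, 33.05 and 13.54, and only the last 2 of them held more than 109 tags. The 4 regions in Srebf2 (chromosome 15, 82192109 to 82196449), the gene of a transcription factor that drives cholesterol synthesis, held 23, 277, 223 and 168 tags at 20.39-fold, 14.53-fold, 21.04-fold and 14-fold. The 23-tag region had an FDR of 96.2% and the others 0%, so the second largest fold rested on the fewest tags. In Fanci (chromosome 7, 79408792 to 79413041), a gene of DNA crosslink repair, the tags were 157, 171, 125 and 242 at 13.84-fold, 7.37-fold, 10.85-fold and 18.46-fold.

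A smaller cluster of 4 crossed an end of Phactr1, a regulator of protein phosphatase 1 and actin, with the regions of 11.86-fold and 8.95-fold overlapping the gene and those of 12.7-fold and 6.04-fold beyond it. Others lay in Etv5, an ETS transcription factor (folds 6.31 to 14.73), and Gtf2ird1, a transcription factor gene (11.13 to 33.13). One more lay 2.36 kb from Dnajc12, a co-chaperone gene (7.24 to 14.98). In the Etv5 and Dnajc12 clusters no region reached an FDR of 5%: the lowest values were 17.4% and 7.1%. The cluster with the most tags and the longest span was unlike these. It lies on chromosome 2 at 98662197 to 98667359, 1031 kb from the nearest protein-coding gene, and its 4 regions held 1281, 739, 259 and 1787 tags at folds of only 2.9, 5.08, 6.98 and 2.15. Its 4066 tags were 1.03% of all tags in clustered regions, and the next cluster by tags held 1144. Without it the median fold of clustered regions was 12.44 and the median tag count 107. The caller kept at most 1 tag per position, which limits how many tags a region can hold: the outer 2 regions held 1281 tags in 827 bp and 1787 in 1131 bp. How reads that match several places were put is not known here. The part of either in the low folds of this cluster was not tested.

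**Figure D4:**
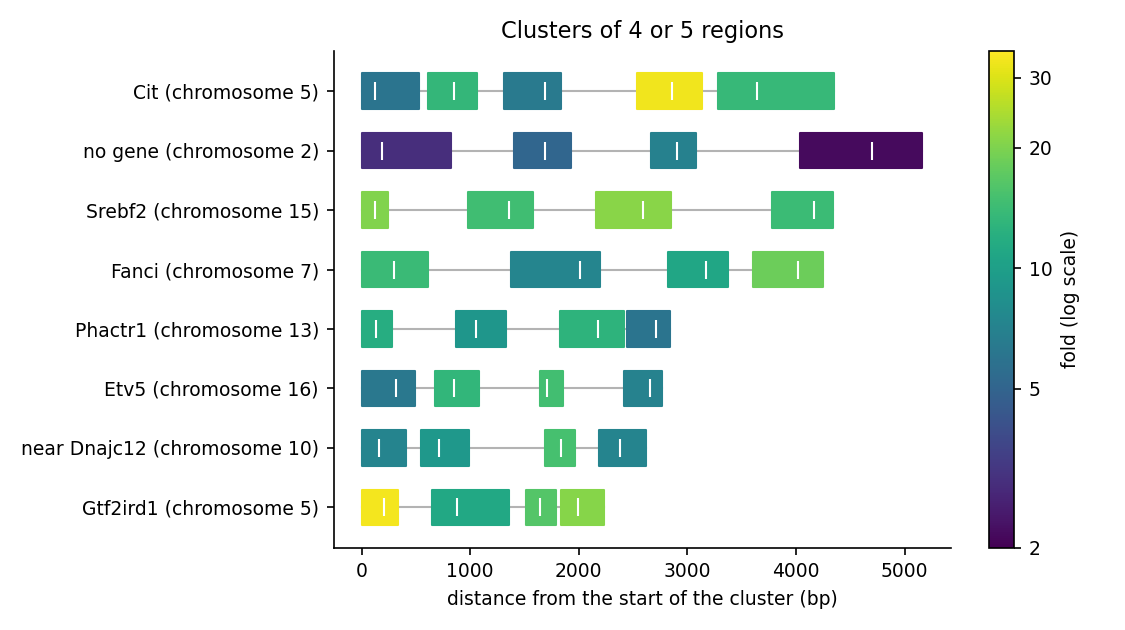
Regions (bars) of 8 clusters with 4 or 5 regions, drawn to scale by distance in bp from the start of each cluster, with the summit as a white tick and the fold as colour on a log scale. Folds vary within each cluster, as in Cit (5.99 to 33.05), and the chromosome 2 cluster without a gene stands at 2.15 to 6.98.

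Other clusters rich in tags lay mainly within genes. In Obox6, an oocyte homeobox gene (chromosome 7, 15837055 to 15839035), regions of 1029 and 115 tags at 7.57-fold and 13.57-fold were 56 bp apart. Foxp1, a forkhead transcription factor gene, held 259, 85 and 588 tags at 13.53-fold, 6.55-fold and 5.35-fold (chromosome 6, 98926561 to 98930072). The remaining ones in or across the end of genes were in Cit (522 and 341 tags), Syt11, a synaptotagmin gene (100, 395 and 280 tags, 10.29-fold to 12.82-fold), Pam, an enzyme of peptide amidation (477 and 297 tags), Nlrc4, an inflammasome gene (134 and 624 tags), and Coq6, an enzyme of coenzyme Q synthesis (208 tags at 35.51-fold and 548 at 14.64-fold). A cluster of 159 and 657 tags lay 13.4 kb from Dynlt1b. The reverse held for clusters of at least 3 regions with the largest median folds, which were poor in tags. The cluster in Ppip5k1, an inositol phosphate kinase gene (chromosome 2, 121341453 to 121343490), led with a median of 39.71 from regions of 18, 34 and 91 tags. One in Chsy3, a chondroitin sulfate synthase gene, had a median of 27.26 from 61, 11 and 232 tags. The other 3 lay outside protein-coding genes, 13.1 to 513 kb away, with medians of 29.66 to 30.38 and 74 to 185 tags in sum.

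Most clusters lay in genes, as did most isolated regions. The summit of 1760 clustered regions (59.1%, interval 57.3 to 60.8) fell inside a protein-coding gene, against 55.5% (54.98 to 56.1) of isolated regions, a difference of 3.55 points (1.69 to 5.39). Among regions with an FDR of at most 5% alone, the shares were 66.7% of those with a neighbour and 56.7% of the others. Over the full list the difference varied in sign between classes of regional density. In 1 Mb windows with 11 to 20 regions the share was 48.5% of clustered and 54.5% of isolated regions, a difference of -5.97 points (-10.1 to -1.82). In windows with 1 to 10, 21 to 30, 31 to 50 and 51 to 100 regions the differences were -2.28, 1.97, 3.01 and 1.54 points. Each of these has an interval that includes 0 and also 3.55 points, so these classes cannot decide whether the difference holds within them. A summit inside or outside a gene and no more than 1 kb from one of its ends was found for 166 clustered regions (5.57%) and 4.56% of isolated ones, a difference of 1.01 points (0.21 to 1.92). In all, 870 clusters (60.5%) touched a protein-coding gene, and in 832 all regions overlapped the same gene. Taken singly, 59.7% of clustered and 56.0% of isolated regions overlapped one. A cluster also spans more bases than a single region, which was not adjusted for.

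The clustered share is bound to rise with the local density of regions, since the rule uses the distance to the nearest region, and the shares that density alone would give were not computed. The shares by density are therefore a description. In windows with up to 10 regions per Mb 278 of 6203 regions (4.48%) were clustered, and in windows with 51 or more 374 of 2426 (15.4%). Among chromosomes the share ran from 5.95% on chromosome 6 (4.92 to 7.18) to 9.87% on chromosome 15 (8.48 to 11.4), with chromosome 5 at 9.81% and a median of 8.72%. The interval of chromosome 6 lay below that of chromosome 15, and neighbours in the order overlapped. Clusters per Mb ran from 0.32 on chromosome 6 to 0.84 on chromosome 11. The windows with the most clusters, 9 each, were both on chromosome 5, at 115000001 to 116000000 and 123000001 to 124000000. In the sparsest windows clustered regions had a median fold of 14.6 and isolated ones 12.95, and in the densest windows the medians were 11.87 and 11.89.

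**Figure D5:**
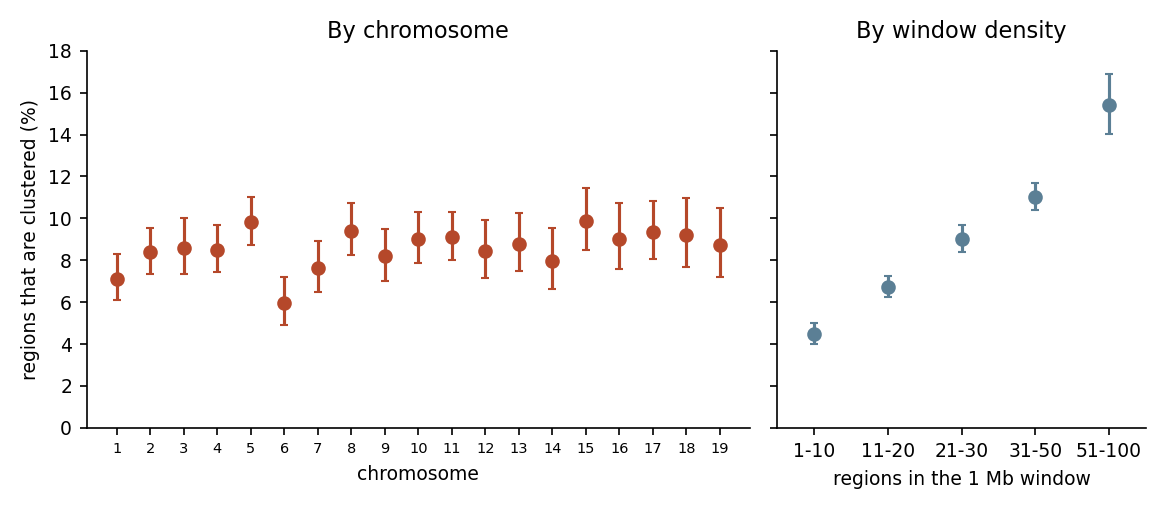
Share of autosomal regions that are clustered, in percent with 95% Wilson intervals, by chromosome (left) and by the number of regions in the 1 Mb window that holds them (right). Chromosome 6 is lowest at 5.95% and chromosome 15 highest at 9.87%, and the share rises from 4.48% to 15.4% with window density.

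Of 20661 autosomal protein-coding genes, 785 (3.8 percent) shared a base with a clustered region and 8164 (39.5 percent) with any region. Genes with a clustered region were long, with a median of 59.1 kb against 41.5 kb for genes with isolated regions alone and 9.06 kb for genes with none. The share with a clustered region rose from 0.72% of genes up to 10 kb long to 14.1% of genes over 300 kb. The share of a gene's regions that were clustered went the other way, from 12.2% (105 of 860) in genes up to 10 kb to 7.3% (206 of 2821) in genes over 300 kb. At least 2 clusters were found in 76 genes and at least 3 in 11.

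Cit held the most, 6 clusters with 15 of its 27 regions, along 164 kb. Their folds ran from 4.69 to 42.68, and 10 of the 15 had an FDR of at most 5%. Zfhx3, a zinc finger homeobox gene, held 5 clusters, but those took only 10 of its 50 regions. Mast4, a kinase gene, and Tshz2, a zinc finger gene, held 4 each, and in Mast4 none of the 8 regions reached an FDR of 5%, with 15 to 85 tags each. Further genes with 3 clusters each were Foxn3, Atp9a, Maml3, Nav2 and Oscp1. Among these, Oscp1 is short. Oscp1, an organic solute carrier partner gene of 36.6 kb on chromosome 4, had all 6 of its regions in clusters, each with an FDR of at most 2.9%. Its pairs held 292 and 118 tags (8.19-fold, 20.75-fold), 275 and 131 tags (10.93-fold, 29.56-fold) and 75 and 126 tags (12.91-fold, 7.53-fold). In each of the 3 Oscp1 pairs the region with fewer tags had the larger fold. Maml3, a coactivator of Notch signalling, held 2 of the larger folds, 52.57 with 152 tags and 53.58 with 106 tags, and the neighbour of the latter, 320 bp away, stood at 6.31-fold with 84 tags and an FDR of 100%.

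Few clusters lay at gene starts. Outside chromosome 18, 32 of 2869 clustered regions (1.12%, 0.79 to 1.57) had the summit within 1 kb of an annotated start of a protein-coding gene, against 1.41% of isolated regions (1.29 to 1.55). In 11 clusters at least 2 regions came within 1 kb of the same start. Besides Atp6v1e2, Peg12 and Cytip, described above, the first 10 were at Pramel1 (a PRAME family gene), Csrnp1 (a nuclear protein gene), Lypd4 and Dmrtc2 (genes expressed in male germ cells, which share a cluster), Olfr212 (an olfactory receptor gene), Ska3 (a kinetochore gene), Cfdp1 (craniofacial development protein 1) and Atg14 (an autophagy gene). The pair at Csrnp1 held 118 and 234 tags at 9.78-fold and 11.64-fold, and that at Olfr212 held 208 and 21 tags at 29.84-fold and 10.86-fold. At Pramel1 the folds were 5.65 and 2.82 with 83 and 334 tags, and the FDR values were 82.7% and 38.2%. Within cluster spans lay 11 annotated protein-coding starts, of which 7 were inside a region and 4 in a gap: Pramel1, Dmrtc2, Ushbp1 and Cfdp1. The share in gaps, 36.4% (15.2 to 64.6), was close to the share of the spans that gaps take up, 32.9%. At Ushbp1 the start lay 339 bp from a region of 36.14-fold and 342 bp from one of 6.54-fold.

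Counts of genes with clusters in lists for the tissue and for the methylation machinery are set beside the 3.8 percent of all autosomal protein-coding genes. In the methylation machinery list 14 of 19 autosomal genes held some region, clustered or not. This is a larger share than the 39.5 percent of all autosomal protein-coding genes. Of 19 autosomal genes of the DNA methylation machinery 5 held a clustered region: Dnmt3a (4 of 9 regions), Dnmt1 (2 of 7), Tet1 (2 of 8), Dnmt3l (2 of 3) and Uhrf1 itself (2 of 5). Dnmt3a, a methyltransferase that sets new methylation, held a pair of 256 and 110 tags (18.4-fold, 11.35-fold) and a pair of 322 and 59 tags (14.93-fold, 5.42-fold), the last with an FDR of 100%. The pair in Dnmt1 held 99 and 88 tags at 4.87-fold and 6.56-fold, with FDR values of 49.0% and 34.9%. Tet1, which oxidises methylcytosine, held 236 and 78 tags at 10.05-fold and 8.05-fold, with FDR values of 0% and 75.2%. Dnmt3l, a cofactor of the de novo methyltransferases, held 115 and 190 tags at 10.6-fold and 14.47-fold, both with an FDR of at most 4.07%. In Uhrf1 (chromosome 17) the clustered pair at 56311880 to 56312392 and 56313261 to 56313839 held 65 and 191 tags at 7.32-fold and 13.98-fold, 868 bp apart, and the other 3 regions were isolated. The 65-tag region had an FDR of 100% and the 191-tag region 0%. Since Uhrf1 is the targeted gene, fewer copies of its DNA and less methylation cannot be told apart there. Hspb1, the small heat shock gene had no clustered region: the 2 regions beside it, of 70 and 187 tags, were 1060 bp apart, just over the limit.

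None of 20 cartilage matrix and chondrocyte identity genes and none of 31 genes of BMP and TGF-beta signalling held a clustered region, although 6 and 16 of them held some region. At the 3.8 percent of all autosomal protein-coding genes, lists this small may well hold none. Of 20 hypertrophy and ossification genes 2 did. Hdac4, a histone deacetylase that restrains hypertrophy, had 3 regions in 1 cluster with 83, 197 and 201 tags at 7.85-fold, 14.34-fold and 27.39-fold. The first of these had an FDR of 12.1% and the others 0%. Mef2c, a transcription factor of hypertrophy, held 34 and 181 tags at 7.03-fold and 10.36-fold, the former with an FDR of 100%. Among the 28 imprinted genes of the list, which does not include Peg12, only Inpp5f, a phosphoinositide phosphatase gene with an imprinted transcript, held a cluster (50 and 84 tags, 7.97-fold and 13.25-fold). The FDR values of these Inpp5f regions were 100% and 1.03%. Genes that mark other cell types were each represented once: Fn1, the fibronectin gene, among 14 fibroblast, synovium and tendon genes (226 and 186 tags, 14.85-fold and 13.42-fold), Runx1, a blood cell transcription factor, among 14 blood cell genes (4 regions, 7.3-fold to 35.34-fold), Pecam1, an adhesion molecule, among 12 endothelial genes (132 and 222 tags, 18.13-fold and 20.57-fold), and Ttn, the titin gene, among 12 skeletal muscle genes (33 and 22 tags, 28.43-fold and 14.97-fold). Neither Ttn region reached an FDR of 5%: the values were 10.7% and 100%. In Runx1 the regions of 35.34-fold, with 25 tags, and of 7.3-fold had FDR values of 24.2% and 8.56%. The other Runx1 regions had 0% and 0.75%, and all those of Fn1 and Pecam1 had 0%. Of 18 autosomal housekeeping genes only Eef2, a translation elongation factor, held a cluster. Its 2 regions, of 36 and 21 tags, had folds of 82.4 and 59.33 in a gene 5.88 kb long. FDR values were 0.1% for the 36-tag region and 9.29% for the 21-tag region. Counts in lists of this size differ by single genes, and gene lengths differ between lists.

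Outside chromosome 18, 4 of 919 autosomal miRNA hairpins of the RefSeq table shared bases with clustered regions: Mir6933 (312 tags, 32.23-fold), Mir3069 (112 tags, 16.75-fold), Mir8090 (149 tags, 9.27-fold) and Mir682. The Mir682 hairpin (chromosome 13, 75645046 to 75645141) spanned the gap between 2 regions of 41 and 198 tags at 7.9-fold and 7.52-fold, with FDR values of 100% and 0.06%. No share of hairpins that meet any region is set beside this count, so nothing is concluded from it.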

How the data were processed

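MBD-seq was measured in 1 Control and 1 Uhrf1 cKO library, grouped by the labels' genotype. Per the file headers, the authors called regions with MACS 1.4.2 at p of 1e-10, with Control as the enriched and cKO as the background library. At most 1 tag per position was kept. The tag size was 55 bp, the modelled distance d 58 bp and the band width 300 bp, with scaling to the smaller library. Coordinates are on mm10 as the submitters' processing notes name it, and the aligner is not given in the sources used here. The deposited values are whole-number Control tag counts, the authors' fold (a ratio), the authors' score (-10 times log10 of p) and the authors' FDR in percent.

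Regions were sorted and joined at gaps of at most 1000 bp. Wilson intervals were used for shares, Newcombe intervals for differences of shares and exact Poisson intervals for counts of pairs. The clustering, overlap and interval functions were tested on simulated data. No genotype difference was tested, because each genotype has 1 library. The plan named 4 results with alternatives for the gap, the score, the FDR, the sex chromosomes and the gene overlap. Windows of 1 kb on either side were used at gene starts and ends. Gene names, spans and upstream sequence came from RefSeq tables of GRCm38.p6, where all list genes were found. Upstream windows were limited to the 250 bases before a start, and counts at starts leave out chromosome 18. The members and lists were chosen with earlier results of these data known. Genes were named by a rule: Uhrf1 and Hspb1, the 10 clusters with the most regions and with the most tags, the 5 longest, the 5 with the largest median fold among clusters of at least 3, the 10 genes with the most clusters, 10 clusters at gene starts and up to 4 genes per list. The Gm40237 repeat, Ushbp1, the miRNAs and the alternatives without regions of 100% FDR or without the cluster with the most tags were added after values were seen. Of the genes this rule names, 2 are not reported here. Python 3.11.15, NumPy 2.4.6, pandas 2.3.3 and Matplotlib 3.10.9 were used.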

Additional observations from a re-analysis of the deposited data

How the results depend on the processing

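Each of 4 results (the number of clustered regions, the number of clusters, the share with a fold of at least 10 and the share with the summit in a protein-coding gene) was recomputed under other settings, 29 values in all, and 14 stayed within 1.5 times the reported count or within the interval of the reported share. The counts depend on the gap and on the strength required of each region. A gap of at most 500 bp gave 1695 regions in 832 clusters, and 2000 bp gave 5113 in 2416, with 61.5% in genes (54.9% of the regions then isolated). With a score of at least 200 before neighbours were sought, 1555 regions in 759 clusters remained, of which 72.5% had a fold of at least 10 (isolated 72.9%) and 65.3% lay in genes (isolated 56.5%). With an FDR of at most 5%, 1069 regions in 524 clusters remained, with 78.7% at a fold of at least 10 (isolated 78.8%) and 66.7% in genes (isolated 56.7%). Without regions of 100% FDR, a setting chosen after seeing the data, the shares were 67.9% (isolated 68.4%) and 62.0% (isolated 56.1%). The cause of these shifts was not tested. The share at a fold of at least 10 was thus slightly below that of isolated regions under these 3 stricter settings and slightly above it otherwise. Adding X and Y, any overlap with a gene, and leaving out the cluster with the most tags (also chosen after seeing the data) moved none of the results they apply to. No paired analysis was possible because there is 1 library per genotype. Depth limits small regions most: clustered regions held as few as 11 Control tags.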
